A study of Mus musculus with 12 samples.

Results

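The genes described here make the lysosome acidic and digest what reaches it: 39 genes, listed by symbol, that comprise 17 subunits of the vacuolar proton pump (V-ATPase), 2 accessory proteins of the pump, 9 cathepsins, 4 glycosidases, 3 genes of lipid handling, 2 membrane glycoproteins, the regulator Tfeb and the channel Mcoln1. All 39 were found by name among the 56262 gene identifiers of the lung table and the 54532 of the AT2 table. The study used C57BL/6 mice that lack Med23, which belongs to the transcriptional Mediator complex, in their T cells. The first group was lung tumour from 3 knockout mice (102, 217 and 224) at 18 months of age, and the second was adjacent normal lung of the same 3 mice, so tumour and adjacent tissue carried the same deletion. The third group was alveolar type 2 (AT2) cells, the surfactant-making cells of the alveolus, sorted at 6 months of age from 3 knockout mice (175, 179 and 191). The fourth was AT2 cells sorted at the same age from 3 wild-type (WT) mice (176, 177 and 190). The tumours arose spontaneously, each library is named for 1 mouse, and neither the Cre driver nor the sort markers were named in the labels. The sorted cells are epithelial and so were not the cells targeted by the deletion.

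The V-ATPase is a rotary pump. Its cytosolic V1 domain splits ATP and turns a rotor, and its membrane-embedded V0 domain carries protons into the lumen, where acid-activated hydrolases digest proteins, glycans and lipids. Several subunits exist as isoforms that differ between tissues. In the lung, alveolar macrophages degrade surfactant in lysosomes, and AT2 cells store surfactant in lamellar bodies, which are acidic organelles related to lysosomes. The transcription factor Tfeb drives many lysosomal genes through E-box-like elements in their promoters.

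The lung libraries held 65163100 to 77951014 counts each and the AT2 libraries 15943084 to 18913242. Levels are given as CPM (counts scaled to the library total with edgeR's TMM factors), and levels of different genes are compared only as CPM per kilobase of exon. The exon length is the union of all annotated exons of a gene, which can exceed the length of the RNA that is expressed. Rankings per exon length and isoform shares per exon base depend on this choice. Sorted cells carried the summed CPM of 11 AT2 markers at 146614 to 149587 in knockout and 147631 to 184621 in WT libraries, while 12 alveolar macrophage markers summed to 23.4 to 33.7 and 24.4 to 25.8 CPM in the same groups. T cell markers summed to 11.7 to 55.6 CPM in tumours and 43.6 to 152 CPM in adjacent lung, and to 2.17 to 2.51 CPM in knockout and 0.573 to 2.12 CPM in WT AT2 libraries, too little to check a deletion in T cells from the level of Med23. Among lung libraries, adjacent 102 stood apart: its alveolar macrophage markers summed to 787 CPM, against 8633 and 8566 CPM in adjacent 217 and 224. Most of that gap was 1 gene, Chil3, and the other 11 markers summed to 448 CPM in adjacent 102, against 1194 and 1409 CPM in adjacent 217 and 224. Both libraries of mouse 217 read long genes less than the other lung libraries did (Spearman rho of deviation on exon length across genes of -0.273 in tumour 217 and -0.24 in adjacent 217), as did WT 176 and WT 177 (-0.171 and -0.225).

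Promoter windows, from 250 bases before to 50 after the RefSeq start (GRCm38.p6), were found for 31 of the 39 members, as 36 windows because some genes have several starts. They were searched for CACGTG, the core of the element that Tfeb is known to bind, which reads the same on both strands. It occurred in 11 of 36 member windows (30.6%), against 7.15% of all 32851 windows. TCACGTG or its reverse complement CACGTGA, which contain that core, occurred in 10 member windows (27.8%) and in 3.77% of all windows. Of the members printed below, Lamp1 and Mcoln1 show repeated matches, with 4 and 2 in their windows, and Atp6v1c2 and Atp6v1b1 are the pump genes that passed the test between tumour and adjacent lung and hold no match. Capitals mark CACGTG with an adjoining T before it or A after it.
Lamp1, chr8:13158911-13159210, plus strand: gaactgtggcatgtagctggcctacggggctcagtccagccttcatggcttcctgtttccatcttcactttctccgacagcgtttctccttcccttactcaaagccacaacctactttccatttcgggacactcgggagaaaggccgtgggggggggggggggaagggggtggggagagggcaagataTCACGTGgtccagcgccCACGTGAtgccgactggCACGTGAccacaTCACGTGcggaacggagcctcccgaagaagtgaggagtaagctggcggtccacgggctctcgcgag
Mcoln1, chr8:3500269-3500568, plus strand: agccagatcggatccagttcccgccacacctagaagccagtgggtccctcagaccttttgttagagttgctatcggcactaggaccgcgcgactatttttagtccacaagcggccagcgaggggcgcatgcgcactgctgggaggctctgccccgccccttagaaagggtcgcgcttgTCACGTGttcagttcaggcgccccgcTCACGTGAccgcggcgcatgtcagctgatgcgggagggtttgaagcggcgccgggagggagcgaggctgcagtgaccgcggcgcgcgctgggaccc
Atp6v1c2, chr12:17324681-17324980, minus strand: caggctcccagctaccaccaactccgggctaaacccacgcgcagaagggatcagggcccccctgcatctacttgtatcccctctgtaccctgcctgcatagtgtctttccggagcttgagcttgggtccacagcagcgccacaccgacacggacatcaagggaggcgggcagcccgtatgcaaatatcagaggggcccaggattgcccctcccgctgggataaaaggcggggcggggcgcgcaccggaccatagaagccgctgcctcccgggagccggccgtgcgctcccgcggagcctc
Atp6v1b1, chr6:83742767-83743066, plus strand: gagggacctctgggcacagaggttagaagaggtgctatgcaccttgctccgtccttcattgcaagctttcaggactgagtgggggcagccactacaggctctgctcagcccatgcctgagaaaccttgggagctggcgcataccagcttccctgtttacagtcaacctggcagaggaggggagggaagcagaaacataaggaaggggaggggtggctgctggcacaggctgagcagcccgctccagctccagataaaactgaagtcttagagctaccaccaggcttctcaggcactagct
The members with the core were Atp6v0b, Atp6v0d1, Atp6v0e, Atp6v1a, Ctsa, Ctsd, Ctsl, Gaa, Glb1, Lamp1 and Mcoln1. None of these 11 passed the test between tumour and adjacent lung, where their log2 fold changes ran from -1.52 (Ctsd) to 0.51 (Glb1). A match describes the letters of a window and says nothing about binding.

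The first comparison asked how the tumours differed from the lung around them. Of the 39 members, 3 passed (edgeR quasi-likelihood test, Benjamini-Hochberg adjusted p under 0.05 over all 19995 genes tested): Atp6v1c2 and Ctsh were higher in tumours and Atp6v1b1 was lower. Over all genes 10.0% passed, 2.86% higher and 7.18% lower, so the members' 3 of 39 is a share near the background. The median log2 fold change of the members was -0.45, against 0.04 over all genes tested, with 12 positive and 27 negative. With library totals as the only scaling, the median over all genes was -0.18 and that over the members -0.65. With any 1 library left out, the median of the members ran from -0.62 (without adjacent 102) to -0.29 (without adjacent 224). With the mouse as a replicate block and a gene length offset it was -0.22, against 0.10 over all genes. At an unadjusted p under 0.05 there were 8 members, against 24.0% of all genes. The libraries of the groups did not overlap for 7 members, against 30.5% of all genes: Atp6v1c2, Ctsh, Atp6v0a4 and Ctsc were higher in tumours (11.6% of all genes) and Atp6v1b1, Ctsl and Npc1 were lower (18.9%). With limma-voom the same 3 members passed, against 11.3% of all genes, and with the DESeq2 Wald test 7 did, against 18.7%. With the mouse as a replicate block, which uses the pairing of tumour and adjacent tissue, 6 members passed, against 14.9% of all genes (5.57% higher and 9.34% lower). They were these 3, Atp6v0a1 and Atp6v0a4, both higher, and Npc1, lower. In the main fit the other 36 members did not pass, at adjusted p = 0.0608 to 0.985. The standard error of a member's log2 fold change was 0.40 at the median and 1.39 at most. A missed threshold in lung thus does not show equal levels.

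**Figure D1:**
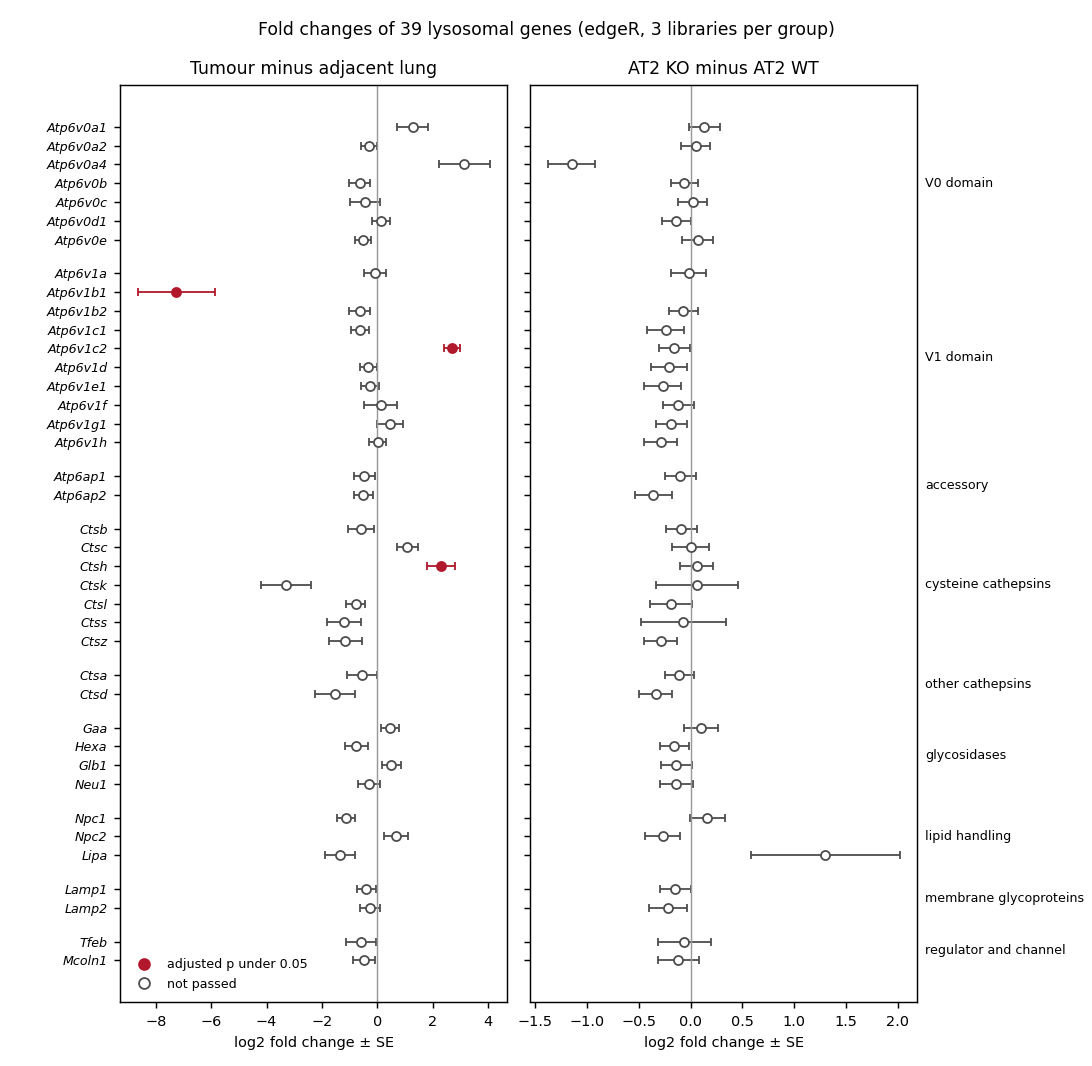
Log2 fold change ± standard error of each member, for tumour minus adjacent lung (left) and knockout minus WT AT2 cells (right), in 3 libraries per group; filled points passed at an adjusted p under 0.05. Atp6v1c2 (2.70), Ctsh (2.32) and Atp6v1b1 (-7.27) are filled on the left and none on the right, where the axis is narrower and Atp6v1b1 was not tested.

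Among the subunits of the V1 domain, the C subunit, which clamps the stator of the pump to the membrane part and comes as C1 (Atp6v1c1) or C2 (Atp6v1c2), held the member with the lowest adjusted p. Atp6v1c2 (ENSMUSG00000020566, GRCm38 chr12:17284721-17329359, minus strand), an isoform known in mouse from kidney and from the lamellar bodies of AT2 cells, was at 197, 284 and 238 CPM in tumours 102, 217 and 224, against 35.9, 34.1 and 40.9 CPM in the adjacent lung of the same mice. Every tumour lay far above every adjacent library. The means were 240 ± 43.7 CPM in tumours and 37.0 ± 3.55 CPM in adjacent lung (SD, n = 3 each), a log2 fold change of 2.70 ± 0.30 (edgeR, adjusted p = 0.00652). The call held when any 1 library was left out (adjusted p = 0.00764 to 0.0328). Its ubiquitous counterpart Atp6v1c1 was at 58.9, 46.7 and 58.3 CPM in tumours, against 52.8, 95.8 and 104 CPM in adjacent lung, and did not pass (log2 fold change -0.62 ± 0.34, adjusted p = 0.328). Per exon base, Atp6v1c2 made up 89.6%, 94.0% and 91.3% of the counts of the C isoform pair in tumours 102, 217 and 224, against 63.6%, 47.8% and 50.4% in adjacent lung. The groups did not overlap, and the tumours lay near the sorted AT2 cells, where the share was 94.9% to 96.1% in knockout and 94.5% to 96.0% in WT libraries.

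AT2 markers were higher in tumours beside Atp6v1c2. All 11 markers had positive fold changes, 2 of them passed, and their sum was 75511, 228661 and 95965 CPM in tumours 102, 217 and 224, against 22204, 43304 and 28562 CPM in adjacent lung. Sftpc made up most of the sum in every lung library, at 38768, 182981 and 55003 CPM in tumours, against 13009, 31494 and 15965 CPM in adjacent lung. Sftpc itself did not pass (edgeR, adjusted p = 0.131). In bulk tissue, more cells of a type and more RNA per cell cannot be told apart, and the part of AT2 content in this difference was not tested.

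The B subunit, which holds part of the ATP-splitting site, comes as B1 (Atp6v1b1), known from acid-secreting cells of the kidney and epididymis, or as the widespread B2 (Atp6v1b2). Atp6v1b1 (ENSMUSG00000006269, chr6:83742990-83758855, plus strand) had 0, 0 and 4 counts in tumours 102, 217 and 224, against 247, 82 and 427 counts in adjacent lung, or 0, 0 and 0.0583 CPM against 3.09, 1.10 and 5.68 CPM. Tumours all but lacked the gene, and it was rare in adjacent lung. In tumours 0 counts allow up to 0.0426 CPM in tumour 102 and 0.0477 CPM in tumour 217. Pooled over libraries, the ratio of adjacent to tumour was 166. It ran from 64.8 to 609 over the 95% exact Poisson interval of the tumour count, with the adjacent count held fixed (counting error only). The fitted log2 fold change was -7.27 ± 1.39 (edgeR, adjusted p = 0.0213). The call was lost without tumour 102 (adjusted p = 0.061), without adjacent 102 (0.058) and without adjacent 224 (0.0748), while the log2 fold change stayed at -6.62 or below. Atp6v1b2 was at 199, 94.1 and 150 CPM in tumours, against 152, 251 and 286 CPM in adjacent lung, overlapped between the groups and did not pass (adjusted p = 0.4). It made up at least 97.6% of the counts of the B pair per exon base in every one of the 12 libraries.

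Markers of several cell types were lower in tumours beside Atp6v1b1. The 6 club cell markers summed to 1184 to 2595 CPM in tumours and 16867 to 36376 CPM in adjacent lung, and the 8 ciliated cell markers to 9.82 to 34.2 CPM and 465 to 848 CPM. The 7 endothelial markers, of which 6 passed as lower (edgeR), summed to 465 to 553 CPM in tumours and 2229 to 3578 CPM in adjacent lung, and 3 of 7 alveolar type 1 cell markers passed as lower too. Within adjacent lung the order differed, since Atp6v1b1 was highest in adjacent 224, where the club and ciliated sums were lowest. Of the 10 markers of proton-secreting epithelium (ionocytes and intercalated cells), whose sum was 8 to 11.0 CPM in tumours and 30.0 to 104 CPM in adjacent lung, the defining factor Foxi1 had 0 counts in every lung library, and of the 5 tested Slc26a4 passed as lower in tumours (edgeR). Slc26a4 made up most of the sum in every lung library except tumour 217, at 5.61, 5.14 and 7.11 CPM in tumours, against 16.1, 71.9 and 92.3 CPM in adjacent lung. The list did not track Atp6v1b1 in the sorted AT2 cells, where it summed to 114 to 169 CPM in knockout and 103 to 145 CPM in WT libraries beside at most 4 counts of Atp6v1b1. The part of these cells in the difference was not tested.

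The other 6 subunits of the V1 domain did not pass. Atp6v1a (the catalytic A subunit), Atp6v1d (the central shaft), Atp6v1e1 and Atp6v1g1 (the peripheral stalk), Atp6v1f (part of the shaft) and Atp6v1h (a regulatory subunit) had log2 fold changes of -0.33 to 0.47 and overlapped between the groups. Atp6v1g1 was the V1 member with the highest level per exon length in tumours and adjacent lung. It was at 251, 370 and 161 CPM in tumours, against 138, 296 and 131 CPM in adjacent lung, or 230 ± 92.6 against 166 ± 82.4 CPM per kilobase.

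In the V0 domain, the a subunit forms the proton path and directs the pump to its membrane, with the isoforms a1 (Atp6v0a1), a2 (Atp6v0a2), a3 (Tcirg1, no member of the set) and a4 (Atp6v0a4). Atp6v0a4, known with B1 from acid-secreting cells, was at 95.1, 11.6 and 14.5 CPM in tumours 102, 217 and 224, against 7.79, 3.06 and 2.83 CPM in adjacent lung. Every tumour exceeded every adjacent library, and tumour 102 stood far above the other tumours. The log2 fold change of 3.15 ± 0.91 did not pass (edgeR, adjusted p = 0.0703), but passed with the mouse as a block (2.63 ± 0.40, adjusted p = 0.0209) and without tumour 217 (3.53 ± 0.81, adjusted p = 0.0412). Without tumour 102 it was 1.50 ± 0.55 (adjusted p = 0.175).

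Atp6v0a1, the a isoform of most organelles and of synaptic vesicles, was at 151, 73.9 and 228 CPM in tumours, against 53.2, 30.7 and 102 CPM in the adjacent lung of the same mice. The groups overlapped, since adjacent 224 exceeded tumour 217, but each tumour was above its own adjacent tissue. The log2 fold change was 1.28 ± 0.56 (edgeR, adjusted p = 0.211), and 1.31 ± 0.17 with the mouse as a block, where it passed (adjusted p = 0.0161). Atp6v0a2, the isoform of the Golgi and endosomes, was at 52.1, 65.1 and 66.0 CPM in tumours, against 85.9, 63.5 and 76.4 CPM in adjacent lung, and did not pass (adjusted p = 0.595).

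Per exon base, Atp6v0a1 made up 38.4%, 24.0% and 47.6% of the counts of the a isoforms in tumours 102, 217 and 224, against 23.6%, 8.42% and 17.8% in adjacent lung. In AT2 cells it made up 76.9% to 77.5% in knockout and 74.7% to 75.7% in WT libraries. Tcirg1, the isoform of osteoclasts and of phagocyte lysosomes, made up 16.8%, 50.5% and 35% in tumours, against 34.6%, 73.5% and 68.7% in adjacent lung. Each tumour thus held a larger share of a1 and a smaller share of a3 than its own adjacent tissue. The groups did not overlap for a1 and overlapped for a3. Atp6v0a4 was 31.9% of the set in tumour 102 but 4.96% and 4% in tumours 217 and 224, against 4.56%, 1.11% and 0.648% in adjacent lung.

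**Figure D2:**
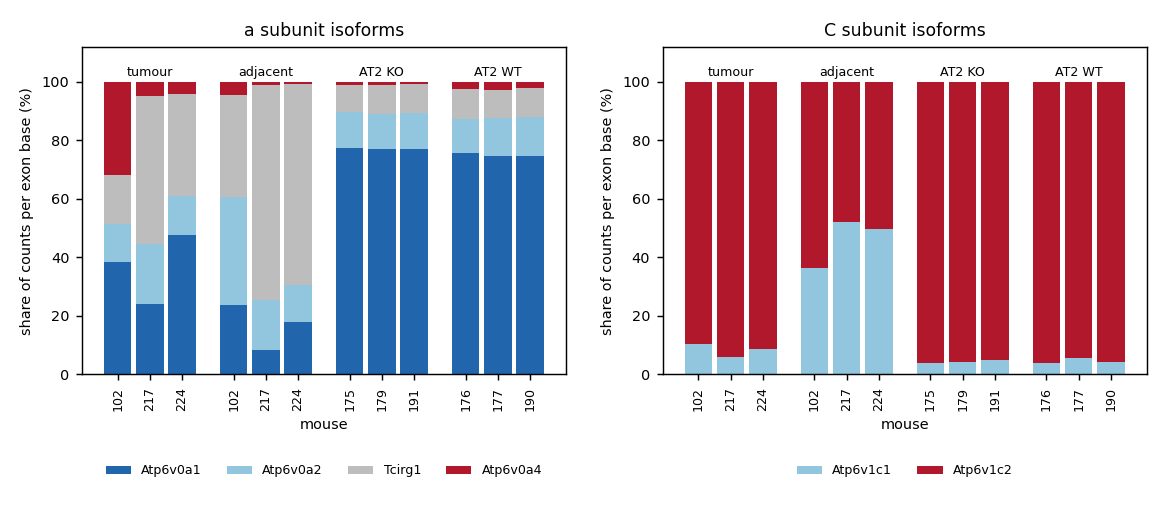
Share of counts per exon base (percent) taken by each isoform of the a subunit (left) and of the C subunit (right) in each of the 12 libraries. Atp6v1c2 takes 89.6% to 94.0% of the C pair in tumours and 47.8% to 63.6% in adjacent lung, and Atp6v0a1 takes 74.7% to 77.5% of the a isoforms in AT2 cells.

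The remaining V0 members were Atp6v0b and Atp6v0c (the proteolipid ring), Atp6v0d1 (which couples the ring to the shaft) and Atp6v0e (a small membrane subunit). Their log2 fold changes were -0.63 to 0.14, and none passed. Reads of Atp6v0c may be shared with its pseudogenes, which are annotated as separate genes. Atp6v0d1 had the highest level per exon length of the V0 members in tumours and adjacent lung, at 139, 185 and 188 CPM in tumours, against 103, 174 and 187 CPM in adjacent lung. The accessory proteins Atp6ap1 and Atp6ap2, which help to assemble and target the pump, also did not pass. Atp6ap1 was at 106, 57.1 and 134 CPM in tumours, against 119, 131 and 159 CPM in adjacent lung. Atp6ap2 was at 98.4, 49.7 and 75.4 CPM in tumours, against 85.0, 113 and 118 CPM in adjacent lung.

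**Figure D3:**
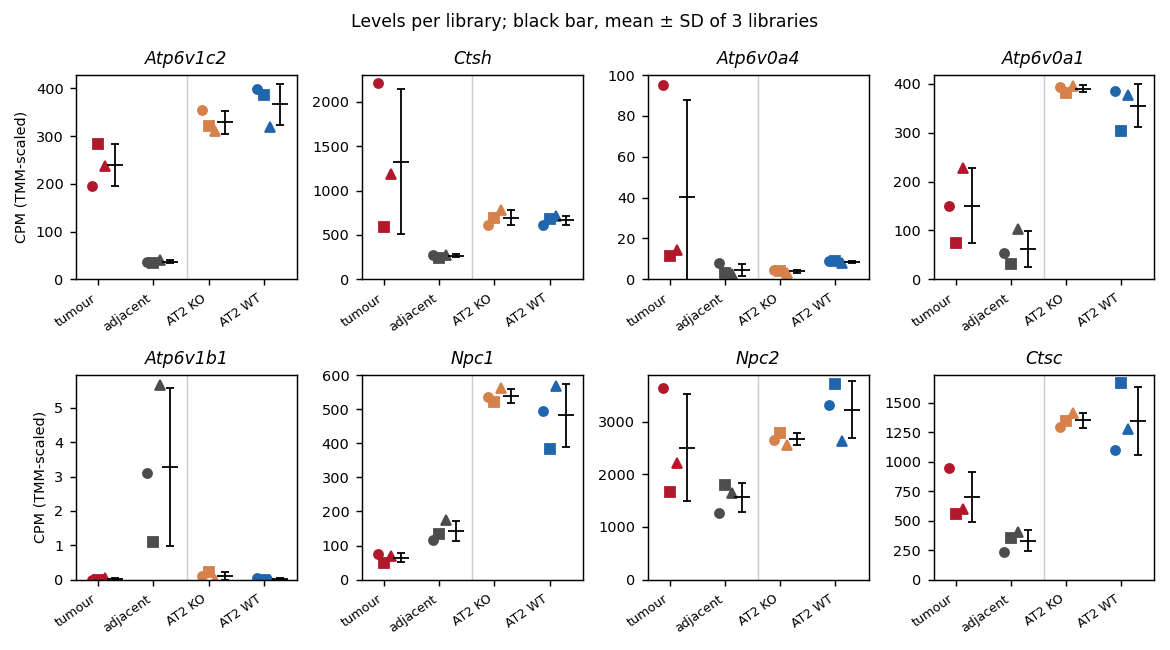
CPM of 8 members in each library of the 4 groups, on linear axes from 0 that differ between panels, with the mean ± SD of 3 libraries in black (the lower bar of Atp6v0a4 in tumours runs below the axis); circle, square and triangle mark mice 102, 217 and 224 in lung, 175, 179 and 191 in knockout AT2 cells, and 176, 177 and 190 in WT AT2 cells. Tumours lie above all adjacent libraries for Atp6v1c2, Ctsh, Atp6v0a4 and Ctsc, and below them for Atp6v1b1 and Npc1.

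Of the 7 cysteine cathepsins, which cleave proteins in the acidic lumen, Ctsh passed. It encodes an aminopeptidase that takes part in the processing of surfactant proteins B and C in AT2 cells. Ctsh (ENSMUSG00000032359, chr9:90054152-90076089, plus strand) was at 2209, 585 and 1187 CPM in tumours 102, 217 and 224, against 270.5, 245 and 279 CPM in adjacent lung. The adjacent libraries lay close together, all tumours lay above them, and the tumours differed widely among themselves. The means were 1327 ± 821 CPM in tumours and 265 ± 18.0 CPM in adjacent lung (SD, n = 3 each), a log2 fold change of 2.32 ± 0.51 (edgeR, adjusted p = 0.0316). The call held with the mouse as a block (2.12 ± 0.40, adjusted p = 0.0315) but, among fits with 1 library left out, only without tumour 217 (adjusted p = 0.0125). It was lost without tumour 102 (1.70 ± 0.40, adjusted p = 0.0695), tumour 224 (0.0759), adjacent 102 (0.1), adjacent 217 (0.0991) and adjacent 224 (0.11). The AT2 marker sum given above was higher in the tumour than in the adjacent lung of each mouse. Among tumours the order differed: Ctsh was highest in tumour 102, where that sum was lowest, and lowest in tumour 217, where that sum was highest. The part of AT2 content in the difference of Ctsh was not tested.

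Ctsc, the dipeptidyl peptidase that activates granule proteases of leukocytes, was at 947, 553 and 601 CPM in tumours, against 235, 352 and 406 CPM in adjacent lung. The groups did not overlap, but the log2 fold change of 1.08 ± 0.38 did not pass (edgeR, adjusted p = 0.124). Ctsk, a collagen-degrading protease known from osteoclasts and also made by lung macrophages, was at 51.2, 63.7 and 25.8 CPM in tumours, against 49.0, 561 and 784 CPM in adjacent lung. Adjacent 102 lay among the tumours and the other adjacent libraries lay far above them. The log2 fold change was -3.31 ± 0.91 (edgeR, adjusted p = 0.0608) with all libraries, and -3.81 ± 0.50 without adjacent 102, where it passed (adjusted p = 0.0279). Scaled by library totals alone it also passed (-3.59 ± 0.91, adjusted p = 0.0409).

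Ctss, the protease that trims the invariant chain of MHC class II in antigen-presenting cells, averaged 215 ± 39.1 CPM per kilobase in tumours and 492 ± 353 in adjacent lung, where it was the highest of this class. It was at 347, 285 and 242 CPM in tumours, against 184, 1143 and 678 CPM in adjacent lung (log2 fold change -1.20 ± 0.61, edgeR, adjusted p = 0.289). The exopeptidase Ctsz had the same order of libraries within adjacent lung, at 218, 278 and 193 CPM in tumours, against 134, 848 and 544 CPM. Ctsb, an abundant endo- and exopeptidase, and Ctsl, a broad endopeptidase, had log2 fold changes of -0.58 ± 0.48 and -0.78 ± 0.35 and did not pass. Ctsl did not overlap between the groups, at 136, 80.8 and 98.5 CPM in tumours, against 137, 167 and 238 CPM in adjacent lung, although tumour and adjacent 102 were nearly equal.

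The aspartic protease Ctsd was the member with the highest level per exon length in both tissues, at 585 ± 120 CPM per kilobase in tumours and 1671 ± 1256 in adjacent lung. In tumours its rank above Npc2 rests on exon unions of 2351 bases for Ctsd and 5438 for Npc2. Before division by length, the tumour means were 1375 CPM for Ctsd and 2508 CPM for Npc2. Ctsd was at 1677, 1120 and 1327 CPM in tumours, against 684, 4645 and 6459 CPM in adjacent lung. Adjacent 102 was the lowest of the 6 libraries and the other adjacent libraries were the highest. The log2 fold change of -1.52 ± 0.73 did not pass (edgeR, adjusted p = 0.267), nor did -1.99 ± 0.45 without adjacent 102 (adjusted p = 0.0643). The serine carboxypeptidase Ctsa, which protects Glb1 and Neu1 from degradation, was at 167, 300 and 289 CPM in tumours, against 125, 516 and 477 CPM in adjacent lung, and did not pass.

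None of the 4 glycosidases passed. Hexa, which removes the terminal sugar of the ganglioside GM2, was the highest of them per exon length, at 174, 181 and 133 CPM in tumours, against 128, 389 and 301 CPM in adjacent lung (log2 fold change -0.75 ± 0.43). Gaa, the glycogen-digesting glucosidase, and Glb1, the acid galactosidase, were higher in the tumour than in the adjacent lung of each mouse, with log2 fold changes of 0.47 ± 0.32 and 0.51 ± 0.34 that did not pass (edgeR, adjusted p = 0.444 and 0.443). The sialidase Neu1 had a log2 fold change of -0.31 ± 0.40.

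Npc1 and Npc2 hand cholesterol out of the lysosome, Npc2 as the soluble carrier and Npc1 as the membrane transporter, and their fold changes had opposite signs. Npc1 was at 75.6, 48.8 and 69.2 CPM in tumours, against 117, 134 and 176 CPM in adjacent lung. Every tumour lay below every adjacent library. The log2 fold change of -1.14 ± 0.32 did not pass (edgeR, adjusted p = 0.0616), and passed with the mouse as a block (-1.15 ± 0.23, adjusted p = 0.0368) but not when a correction for gene length was added to the block (-1.01 ± 0.25, adjusted p = 0.0594). Npc2 was the member with the second highest level per exon length in tumours, at 3640, 1661 and 2224 CPM, against 1257, 1791 and 1649 CPM in adjacent lung (log2 fold change 0.68 ± 0.42, adjusted p = 0.401). Lipa, the acid lipase that splits cholesteryl esters, was at 99.6, 35.8 and 70.5 CPM in tumours, against 82.9, 154 and 281 CPM in adjacent lung (-1.33 ± 0.54, adjusted p = 0.182). Tumour 102 exceeded adjacent 102 for both Npc2 and Lipa.

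Lamp1 and Lamp2 are the main glycoproteins of the lysosomal membrane. Lamp1 was at 899, 577 and 694 CPM in tumours, against 835, 1057 and 968 CPM in adjacent lung. Lamp2 was at 391, 172 and 252 CPM in tumours, against 343, 320 and 313 CPM in adjacent lung. Neither passed, at log2 fold changes of -0.40 ± 0.34 and -0.26 ± 0.37. Tfeb was at 12.7, 9.39 and 28.2 CPM in tumours, against 20.2, 15.3 and 40.1 CPM in adjacent lung. Mcoln1, the lysosomal calcium channel, was at 20.3, 26.4 and 40.7 CPM in tumours, against 24.5, 42.9 and 54.2 CPM in adjacent lung. Both were lower in the tumour than in the adjacent lung of each mouse, by 0.50 to 0.68 for Tfeb and 0.26 to 0.69 for Mcoln1 on the log2 scale with 0.5 CPM added, and neither passed.

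Set by mouse, 16 members had the same direction in all 3 mice, 19 had the opposite direction in mouse 102, and the other 4 were mixed in other ways (Atp6v0a2, Atp6v1f, Atp6v1h and Npc2). Atp6v0a1, Atp6v0a4, Atp6v0d1, Atp6v1c2, Atp6v1g1, Ctsc, Ctsh, Gaa and Glb1 were higher in the tumour of every mouse, and Atp6v0e, Atp6v1b1, Atp6ap1, Ctsl, Npc1, Tfeb and Mcoln1 were lower in every mouse. These 9 and 7 members are 23.1% and 17.9% of the set, against 28.2% and 29.3% of all genes tested. A further 19 members (48.7%) were higher in tumour 102 than in adjacent 102 and lower in tumours 217 and 224 than in their own adjacent lung, against 7.68% of all genes. This pattern was chosen after the values were seen and is a description. It covered Ctsa, Ctsb, Ctsd, Ctsk, Ctss, Ctsz, Hexa, Neu1, Lipa, Lamp1 and Lamp2 together with 8 pump genes.

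**Figure D4:**
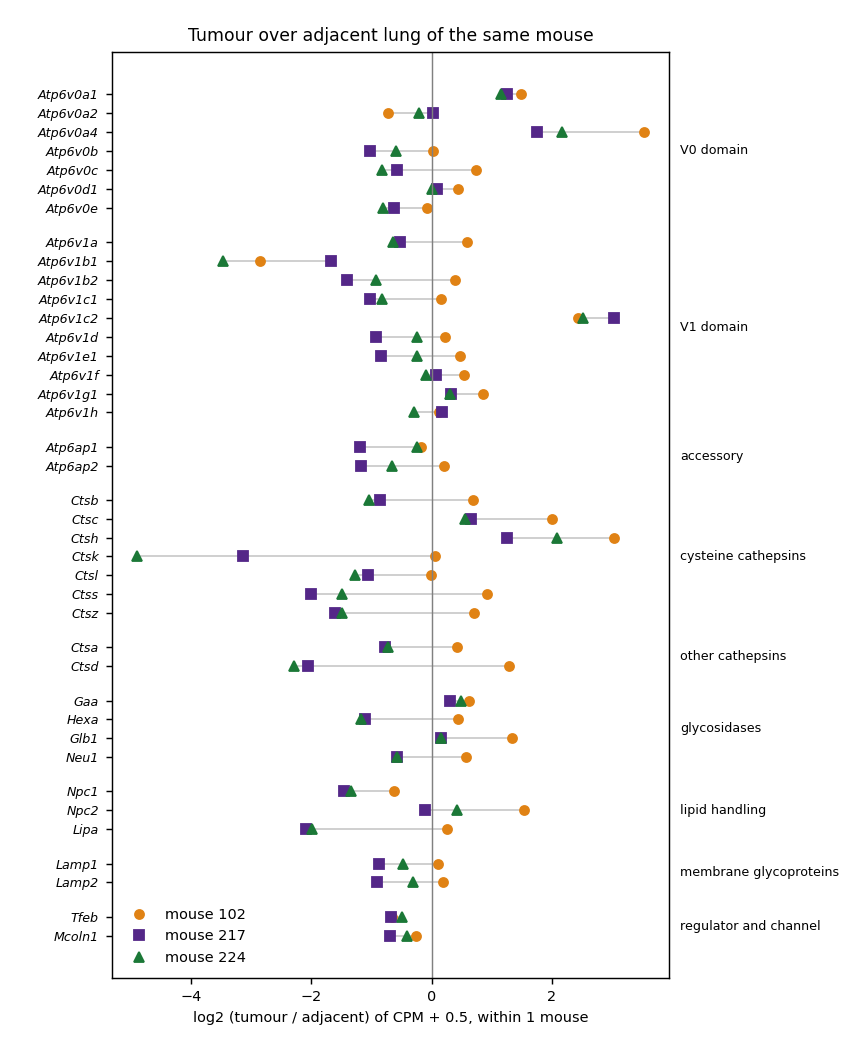
Log2 ratio of tumour to adjacent lung within each mouse (CPM + 0.5) for every member, 1 point per mouse, joined by a line. Mouse 102 lies right of 0 and mice 217 and 224 left of 0 for 19 members, with the widest gaps for Ctsk and Ctsd, while Atp6v1c2, Ctsh, Atp6v0a4 and Atp6v0a1 lie right of 0 in all 3.

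Adjacent 102 was low for most of these genes, lying below adjacent 217 and 224 for 17 of the 19, with Atp6v1a and Lamp2 as the exceptions. For those, tumour 102 was the highest of the tumours. Over the whole set adjacent 102 lay below both other adjacent libraries for 29 of 39 members (74.4%), against 30.7% of all genes, and was the lowest of all 6 lung libraries for 16 members. Its level was 0.0729 of the mean of adjacent 217 and 224 for Ctsk, 0.123 for Ctsd, 0.192 for Ctsz and 0.202 for Ctss. The alveolar macrophage markers summed to 2468, 1416 and 1118 CPM in tumours 102, 217 and 224, against 787, 8633 and 8566 CPM in adjacent lung. Of the 12 markers, 10 had negative and 2 had positive log2 fold changes, and 2 passed as lower in tumours (edgeR). The positive ones were Siglecf (0.40) and Ear1 (0.34). In adjacent 102, 217 and 224 Siglecf was at 8.48, 7.84 and 10.5 CPM, and Ear1 at 20.5, 9.57 and 4.91 CPM. The sum was dominated by Chil3, at 1919, 974 and 740 CPM in tumours, against 339, 7439 and 7156 CPM in adjacent lung. Without Chil3 the sum was 549, 442 and 379 CPM in tumours 102, 217 and 224, against 448, 1194 and 1409 CPM in adjacent lung, so adjacent 102 then lay among the tumours. Adjacent 102 was below both other adjacent libraries for 9 of the 12 markers and the lowest of the 6 lung libraries for 4. Markers of monocytes and other macrophages summed to 760 to 1063 CPM in tumours and to 465, 1388 and 984 CPM in adjacent 102, 217 and 224. The part of macrophage content in the values of these hydrolases was not tested.

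**Figure D5:**
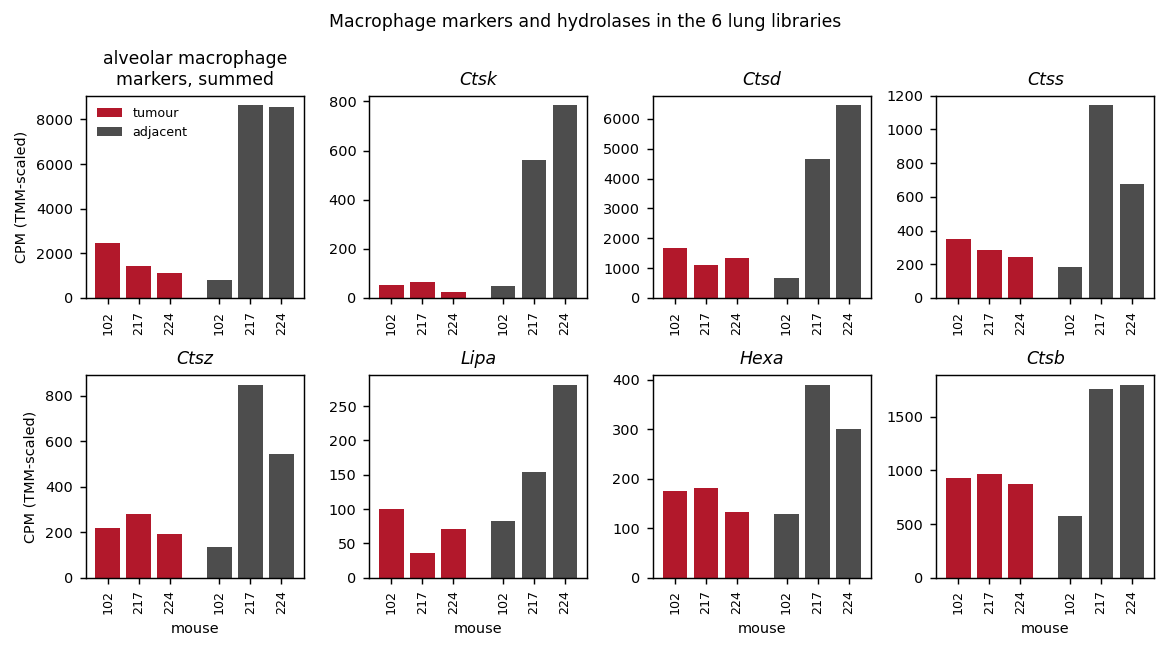
Summed CPM of 12 alveolar macrophage markers and CPM of 7 hydrolases in the 6 lung libraries, as bars from 0, tumours left and adjacent lung right, each by mouse. Adjacent 217 and 224 are the highest bars in every panel, and adjacent 102 lies near or below the tumours.

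Pump genes and hydrolases were then set side by side. The 19 pump and accessory genes had a median log2 fold change of -0.30 between tumour and adjacent lung, and the 14 hydrolases (cathepsins, glycosidases and Lipa) one of -0.66. The pump median was higher by 0.36, by 0.15 to 0.50 with any 1 library left out, and by 0.29 with the mouse as a block. Both medians lay below the 0.04 of all genes tested, and the difference is a description without a test. In AT2 cells the medians were -0.13 and -0.10, with -0.01 over all genes.

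Of 122 other genes of the lysosome in 6 lists, 118 were tested between tumour and adjacent lung, 1 passed as higher and 3 as lower, against 2.86% and 7.18% of all genes. Lamp3, the membrane glycoprotein of lamellar bodies, was at 1873, 1332 and 1021 CPM in tumours, against 438, 452 and 412 CPM in adjacent lung (log2 fold change 1.70 ± 0.36, edgeR, adjusted p = 0.0286). It is also 1 of the AT2 markers. The hyaluronidase Hyal1 was at 1.63, 1.11 and 1.40 CPM in tumours, against 29.4, 3.18 and 15.0 CPM in adjacent lung (edgeR, adjusted p = 0.0316). Mcoln3, a channel related to Mcoln1, was at 5.94, 3.71 and 1.95 CPM in tumours, against 8.49, 34.6 and 48.2 CPM in adjacent lung (edgeR, adjusted p = 0.0382). Fnip2, a partner of folliculin in nutrient sensing, was at 19.7, 13.1 and 18.2 CPM in tumours, against 42.7, 43.6 and 69.8 CPM in adjacent lung (edgeR, adjusted p = 0.0273). The median log2 fold change of the 118 was -0.26. None of the 15 tested genes for other pump subunits and assembly factors, 14 for other proteases and inhibitors and 9 for mannose 6-phosphate sorting passed.

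The second comparison asked whether AT2 cells of the knockout differed from WT at 6 months, which the study describes as a stage ahead of tumour formation. Whether the lungs of these mice held tumours was not analysed here. Of 38 members tested, 0 passed with edgeR, against 0% of 14053 genes, and 0 passed with limma-voom (0% of all genes) or with DESeq2 (0.00712%). Atp6v1b1 was too rare to test, with 2, 4 and 0 counts in knockout libraries 175, 179 and 191 and 1, 0 and 0 counts in WT libraries 176, 177 and 190. At an unadjusted p under 0.05 there was 1 member, against 2.47% of all genes. The median log2 fold change was -0.12 with 28 negative values, against -0.01 over all genes, and WT 177 was the highest of the 6 libraries for 22 members. Without WT 177 the median was -0.06 with 24 negative values, and without WT 190 it was -0.20 with 28; with library totals as the only scaling it was -0.06, against 0.05 over all genes. The standard error of a member's log2 fold change was 0.16 at the median and 0.72 at most, so a missed threshold does not show equal levels.

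The member with an unadjusted p under 0.05 was Atp6v0a4. It was at 4.38, 4.17 and 3.14 CPM in knockout libraries 175, 179 and 191, against 8.999, 8.83 and 8.15 CPM in WT libraries 176, 177 and 190. It was the only member whose groups did not overlap, against 8.30% of all genes (4.19% higher and 4.11% lower in knockout), and its counts were 75, 76 and 52 in knockout and 153, 154 and 142 in WT libraries. The means were 3.90 ± 0.667 CPM in knockout and 8.66 ± 0.448 CPM in WT cells (SD, n = 3 each), a log2 fold change of -1.15 ± 0.23 (edgeR, unadjusted p = 0.000348, adjusted p = 0.984). Its adjusted p was 0.0778 with DESeq2 and 0.0565 without a filter on low counts, and the log2 fold change ran from -1.24 to -1.02 with any 1 library left out. Its share of the a isoforms was 0.808% to 1.14% in knockout and 2.13% to 2.86% in WT libraries.

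Atp6v1c2, Ctsh and Atp6v0a1 overlapped between the AT2 groups. Atp6v1c2 was at 355, 322 and 310 CPM in knockout, against 399, 385 and 318 CPM in WT cells (log2 fold change -0.16 ± 0.15). Ctsh was at 611, 692 and 785 CPM in knockout, against 610, 679 and 710 CPM in WT cells (0.06 ± 0.16). Atp6v0a1 was at 393, 381 and 395 CPM in knockout, against 385, 304 and 377 CPM in WT cells (0.13 ± 0.15). In each role class the member with the largest absolute log2 fold change overlapped between the groups, except Atp6v0a4. In the V1 domain this was Atp6v1h, at 68.2, 69.6 and 74.8 CPM in knockout, against 87.2, 103 and 70.0 CPM in WT cells (-0.29 ± 0.16). Among the accessory proteins it was Atp6ap2, at 83.7, 76.9 and 79.5 CPM in knockout, against 94.3, 133 and 81.1 CPM in WT cells (-0.36 ± 0.18). Ctsz was at 135, 130 and 127 CPM in knockout, against 174, 180 and 127 CPM in WT cells (-0.29 ± 0.16). Ctsd was at 132, 138 and 129 CPM in knockout, against 183, 189 and 133 CPM in WT cells (-0.34 ± 0.16). The largest value among the glycosidases was that of Hexa, at 74.7, 81.4 and 79.1 CPM in knockout, against 93.5, 93.9 and 76.2 CPM in WT cells (-0.16 ± 0.14). For all of these, WT 190 lay within or near the knockout libraries and WT 176 and 177 lay above them. Lamp2 was at 387, 401 and 403 CPM in knockout, against 365, 585 and 438 CPM in WT cells (-0.22 ± 0.18), and Mcoln1 at 31.3, 25.9 and 25.2 CPM in knockout, against 39.3, 26.3 and 23.7 CPM in WT cells (-0.12 ± 0.20). Lipa rested on few counts, at 1.81, 0.933 and 0.543 CPM in knockout, against 0.118, 0.287 and 0.918 CPM in WT cells (1.30 ± 0.72). Of the 122 other lysosomal genes, 108 were tested in AT2 cells and 0 passed (edgeR), with 0 at an unadjusted p under 0.05.

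Levels in sorted AT2 cells and in lung tissue come from tables normalised apart, so they are set side by side without a test. Npc2 had the highest level per exon length of all members in AT2 cells, at 491 ± 21.4 CPM per kilobase in knockout and 593 ± 99.5 in WT libraries, followed by Lamp1 and Ctsc. Npc2 was at 2648, 2795 and 2565 CPM in knockout, against 3320, 3712 and 2642 CPM in WT cells. Lamp1 was at 631, 685 and 661 CPM in knockout, against 692, 823 and 684 CPM in WT cells, and Ctsc at 1290, 1347 and 1417 CPM in knockout, against 1101, 1665 and 1280 CPM in WT cells. In their own classes Atp6v0d1 led the V0 domain, at 109, 111 and 104 CPM in knockout, against 123, 130 and 103 CPM in WT cells, and Gaa led the glycosidases, at 242, 254 and 225 CPM in knockout, against 257, 185 and 230.5 CPM in WT cells. Atp6ap1 was at 165, 165 and 171 CPM in knockout, against 162, 209 and 163.5 CPM in WT cells. All of these overlapped between the groups. Npc1 was at 520 to 562 CPM in knockout and 384 to 567 CPM in WT AT2 cells, while tumours had 48.8 to 75.6 CPM and adjacent lung 117 to 176 CPM. The phagocyte hydrolases Ctss, Ctsk and Lipa were low in sorted cells. Ctss was at 1.63 to 5.08 CPM in knockout and 2.75 to 3.44 CPM in WT libraries, and Ctsk at 1.15 to 1.87 CPM in knockout and 1.12 to 1.78 CPM in WT libraries. Ctsd, the leading member in lung tissue, was at 56.6 ± 1.78 CPM per kilobase in knockout and 71.5 ± 13.1 in WT AT2 cells. Atp6v1c2 averaged 329 ± 23.4 CPM in knockout and 367 ± 43.0 CPM in WT AT2 cells, and 240 ± 43.7 CPM in tumours and 37.0 ± 3.55 CPM in adjacent lung.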

How the data were processed

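Poly-A RNA was captured on beads and made into NEBNext Ultra libraries, per the labels' protocols, with a kit that does not mark strand. The deposited tables hold raw whole-number counts per gene, 1 table for 6 lung and 1 for 6 AT2 libraries. HISAT2, StringTie (1.3.3b) and DESeq2 (1.28.1) appear in the submitters' processing notes beside FastQC and Trimmomatic (0.39), with the build GRCm38 (mm10). No source used here names the counting step or its strand setting, so reads of overlapping genes cannot be told apart. Identifiers were named from GENCODE M21, which matched all but 1035 lung and 37 AT2 identifiers (0.0388% and 0.00383% of counts).

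Each table was filtered on low counts, TMM-normalised and tested separately with the quasi-likelihood test of edgeR 4.0.16 under R 4.3.3, with the group as its single term and a Benjamini-Hochberg threshold of 0.05. Alternatives were DESeq2 1.42.0, limma-voom 3.58.1, other scaling, no filter, a length offset, leaving out libraries or mice, and the mouse as a replicate block. The mouse numbers pair the lung samples: tumour and adjacent lung came from the same animals, and same-numbered deviations from group means correlated across genes at 0.358 (102), 0.544 (217) and 0.459 (224). Between different mice these correlations ran from -0.393 to 0.025. Deviations from a group mean sum to 0 in each gene, which pushes the values between different mice below 0 when same-mouse values are positive. They are therefore not separate evidence of the pairing. No paired fit is described in the labels, so the main fit left the pairing out and the block was an alternative. The main calls in lung therefore ignore what the libraries of a mouse share. Atp6v0a1, Atp6v0a4 and Npc1 passed with the block but not in the main fit. The script was tested on simulated counts, with 50 genes changed at each fold. In lung the main fit recovered 2% of 2-fold, 8% of 4-fold and 58% of 8-fold changes, with 6 false calls over 19995 genes. In AT2 cells it recovered 44% of 2-fold and 94% of 4-fold changes, with 10 false calls over 14053 genes. The simulated lung libraries were drawn without the pairing by mouse. Far fewer genes were changed in them than passed in the lung data (10.0% of all genes), which makes the adjusted threshold stricter. The recovered shares in lung are thus not the sensitivity of the test on the real libraries. Libraries of a group differed beyond counting noise (chi-square per degree of freedom of at least 7.23). P-values of the main fits measure the spread between libraries of a group, each from a different mouse. In lung, only those of the block measure how the difference between tumour and adjacent lung varies between mice. Intervals and floors (3 counts) cover counting error only.

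The members and lists were chosen with earlier results of these data known. Values per library are given for members that passed, for isoform partners, for the highest member per exon length and the largest fold in each role class, and for others where their pattern was described. Of other lysosomal genes, those that passed are named.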

Additional observations from a re-analysis of the deposited data

How the results depend on the processing

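The number of members that passed between tumour and adjacent lung was 3, and stayed at 3 with DESeq2 size factors, limma-voom or no filter on low counts, and was 4 with library totals alone. It was 7 with the DESeq2 Wald test (18.7% of all genes passed), which added Atp6v0a4, Ctsc, Ctsk and Npc1. The pairing by mouse, fitted as a replicate block, gave 6, and the replicate block with a gene length offset gave 5. With 1 library left out it ranged from 1 to 4. Leaving out both libraries of mouse 102 or of mouse 224, settings chosen after seeing the data, gave 0 in each case, where edgeR passed 0 of all genes too; 15 and 5 members then had an unadjusted p under 0.05. Without both libraries of mouse 217 it was 2. Under all of these settings Atp6v1c2 kept a log2 fold change of 2.43 to 2.86, Ctsh of 1.70 to 2.61 and Atp6v1b1 of at most -6.62. The block changed no other call of a member. In AT2 cells 0 members passed under every setting, and without WT 190, 8 had an unadjusted p under 0.05. Depth limits Atp6v1b1, and Lipa in AT2 cells, which rest on few counts.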
